A study of Mus musculus with 5 samples.

Results

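Translation factors are the soluble proteins that load ribosomes onto mRNA, move them along it and release the finished chain. The set described here holds the protein-coding genes whose symbols begin with Eif or Eef. The Eif genes encode initiation factors, their regulators and the eIF5A proteins, and the Eef genes mostly elongation factors and their modifying enzymes. The set also holds the poly(A)-binding protein genes Pabpc1 and Pabpc4, the release factor genes Etf1, Gspt1 and Gspt2, and Abce1. Abce1 encodes the ATPase that splits ribosomes after termination. Eif2s3y was left out because it lies on the Y chromosome. The rule, which used names and no measured value, found 74 of the 53700 gene IDs in the count table. They were divided into eIF1/eIF5/eIF6 (10 genes), eIF2 with its kinases and its exchange factor eIF2B (14), eIF3 (14), eIF4 with its binding proteins (16), eEF (14), and termination and poly(A)-binding proteins (6).

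The mRNA was isolated by BAC-TRAP, an affinity purification of tagged ribosomes with the mRNA they carry, from pooled midbrains of C57BL/6 mice aged 4 months. All mice carried a Cre-dependent EGFP-L10a ribosome tag and all received AAV:THCre, a virus in which the tyrosine hydroxylase promoter drives Cre recombinase. Esrrg WT mice (genotype L10a;Esrrg WT, 3 libraries numbered 2, 3 and 4) had no floxed Esrrg, whereas in Esrrg Flox mice (L10a;Esrrg Flox, 2 libraries numbered 2 and 4) the recombinase cuts out exon 2 of Esrrg, which encodes the nuclear receptor ERRγ, and tissue was collected 1 month after the deletion. The comparison asks how ribosome-bound mRNA in the targeted midbrain cells differed without intact Esrrg.

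Initiation begins when eIF2, carrying the initiator tRNA, joins the small ribosomal subunit with eIF1, eIF3 and eIF5, and when eIF4F (the cap-binding protein eIF4E, the scaffold eIF4G and the helicase eIF4A) brings in the mRNA. Phosphorylation of eIF2 by stress kinases blocks its exchange factor eIF2B, and 4E-binding proteins, which are switched off by the kinase mTORC1, keep eIF4E from eIF4G. During elongation eEF1A delivers aminoacyl-tRNA, the eEF1B complex recharges eEF1A, and eEF2 moves the ribosome. Many ribosomal protein and elongation factor mRNAs start with an oligopyrimidine (TOP) tract through which mTORC1 controls their translation.

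The promoters of the 6 genes that passed the test of Esrrg Flox against Esrrg WT are shown so that their start regions can be compared. Each runs from 100 bases before to 30 bases after the annotated start (RefSeq, GRCm38.p6), with the ETS-factor motif CCGGAAGT in capitals, and lies at chr1:63176731-63176860 (plus strand) for Eef1b2, chr9:120492506-120492635 (plus) for Eif1b, chr2:154892877-154893006 (minus) for Eif2s2, chr7:28981859-28981988 (minus) for Eif3k, chr1:37997910-37998039 (plus) for Eif5b and chr12:85219381-85219510 (plus) for Eif2b2.
Eef1b2: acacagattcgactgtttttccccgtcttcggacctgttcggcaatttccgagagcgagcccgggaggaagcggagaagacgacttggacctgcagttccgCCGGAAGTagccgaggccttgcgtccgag
Eif1b: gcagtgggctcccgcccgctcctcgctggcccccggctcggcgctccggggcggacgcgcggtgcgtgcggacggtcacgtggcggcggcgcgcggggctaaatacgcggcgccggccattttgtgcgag
Eif2s2: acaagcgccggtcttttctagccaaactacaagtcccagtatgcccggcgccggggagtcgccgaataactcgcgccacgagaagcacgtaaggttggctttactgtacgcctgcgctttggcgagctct
Eif3k: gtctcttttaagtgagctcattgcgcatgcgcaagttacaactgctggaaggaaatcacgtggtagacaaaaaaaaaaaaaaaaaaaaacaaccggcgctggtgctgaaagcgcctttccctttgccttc
Eif5b: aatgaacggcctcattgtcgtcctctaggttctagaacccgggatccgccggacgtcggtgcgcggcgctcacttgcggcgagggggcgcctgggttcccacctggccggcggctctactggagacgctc
Eif2b2: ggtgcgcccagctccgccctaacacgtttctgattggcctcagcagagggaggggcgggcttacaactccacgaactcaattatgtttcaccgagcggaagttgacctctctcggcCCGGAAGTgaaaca

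The motif stood just downstream of the start in Eef1b2, which was higher in Esrrg Flox, and in Eif2b2, which was lower. Over the whole listed promoter (250 bases before to 50 after the start, both strands), CCGGAAGT was found in 9 of the 55 members with a RefSeq promoter entry (16.4%), and in 5.95% of the 16500 protein-coding genes with one. Of 65 ribosomal protein promoters, 12 held it (18.5%). The 9 members were Eef1b2, Eif2ak1, Eif2b2, Eif2b4, Eif3d, Eif3l, Eif4e2, Eif5a and Eif5a2. The core site bound by ERR receptors, AAGGTCA, was found in 0 of the 55 and in 4.62% of all promoters, and its extended form TCAAGGTCA, which contains it, in 0 and 0.388%. These letters were absent from these windows only, and distal sites were not searched. The cyclic AMP response element TGACGTCA was found in 2 members (Abce1 and Eef2) and in 2.64% of all promoters.

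The libraries held between 20635855 and 23105058 assigned counts, so 3 counts corresponded to 0.130 to 0.145 CPM (counts scaled to library size). This floor covers counting error only. WT replicate 4 stood apart from the other libraries in the Y-linked gene Eif2s3y. This gene had 205, 188 and 1.9 normalized counts in WT 2, 3 and 4, and 227 and 130 in Flox 2 and 4. Xist, expressed from the inactive X chromosome, had 13.7, 14.3 and 66.3 normalized counts in WT and 8.6 and 97.4 in Flox. By Xist, WT 4 and Flox 4 stood above the other libraries. The libraries thus differed in sex composition within each genotype. Esrrg itself, counted over all of its exons, had 1763, 1643 and 1726 normalized counts in WT and 1504 and 1170 in Flox. It was lower in each Flox library but did not pass (-0.35 ± 0.13 SE on the log2 scale, adjusted p = 0.0753 by DESeq2), and reads from exon 2 alone were not analysed here. The dopaminergic markers Th (9849 to 12813 normalized counts) and Slc6a3, the dopamine transporter (9593 to 11300), were abundant in all 5 libraries. Of the 11 dopaminergic markers, 9 were fitted lower in Flox (median log2 fold change -0.18), and 1 passed, the receptor gene Ret (5699, 5484 and 6156 normalized counts in WT and 4440 and 4313 in Flox, -0.40, DESeq2 adjusted p = 0.00291). Among 6 GABAergic markers, Sst rose (0.54, DESeq2 adjusted p = 0.0157) and Gad2 fell (-0.35, 0.0303). The part of these shifts in the changes of the translation factors was not tested.

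Translation factor mRNAs were abundant and, as a set, nearly level between genotypes. All members together took 1.55%, 1.53% and 1.62% of assigned counts in WT 2, 3 and 4, and 1.59% and 1.52% in Flox 2 and 4. The Flox libraries lay inside or just below the WT range. Of the 74 members, 71 had enough counts for an adjusted p, and Eif4e1b (an oocyte cap-binding protein), Eif4ebp3 and the methyltransferase gene Eef1akmt3 had 0 to 3 counts per library. By the DESeq2 Wald test, 5 members rose and 1 fell at an adjusted p under 0.05, 6 of 71 in all. Among all 15724 genes tested, 8.25% passed (4.2% higher and 4.05% lower), so the share of members was close to that background. None of the 71 also reached a fold of 1.5, which 3.18% of all genes did. The median log2 fold change over the members was 0.02, against -0.01 over all genes tested, and it was -0.01 with total counts as scaling or with the length trend removed.

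The counts behind these members were deeper than for most genes, with a median of 1777 normalized counts against 394 over all genes tested. Of the 50 members with a mean of at least 1000 normalized counts, 5 passed, whereas 15.2% of the 4612 genes at that level did. At a DESeq2 unadjusted p under 0.05, 16 members were higher and 10 lower, 26 of 71, beside 9.74% and 10.6% of all genes (20.3% in all). At this looser threshold the share of members was above that of all genes. The share among genes of like depth was not computed. The 2 Flox libraries lay above all 3 WT libraries for 21 members and below them for 18, beside 19.9% and 22.5% of all genes. By the edgeR quasi-likelihood test no member passed (1.65% of all genes did), with 25 at an unadjusted p under 0.05 (22.9% of all genes), and 5 of the 6 that passed DESeq2 had edgeR adjusted p-values below 0.1.

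**Figure D1:**
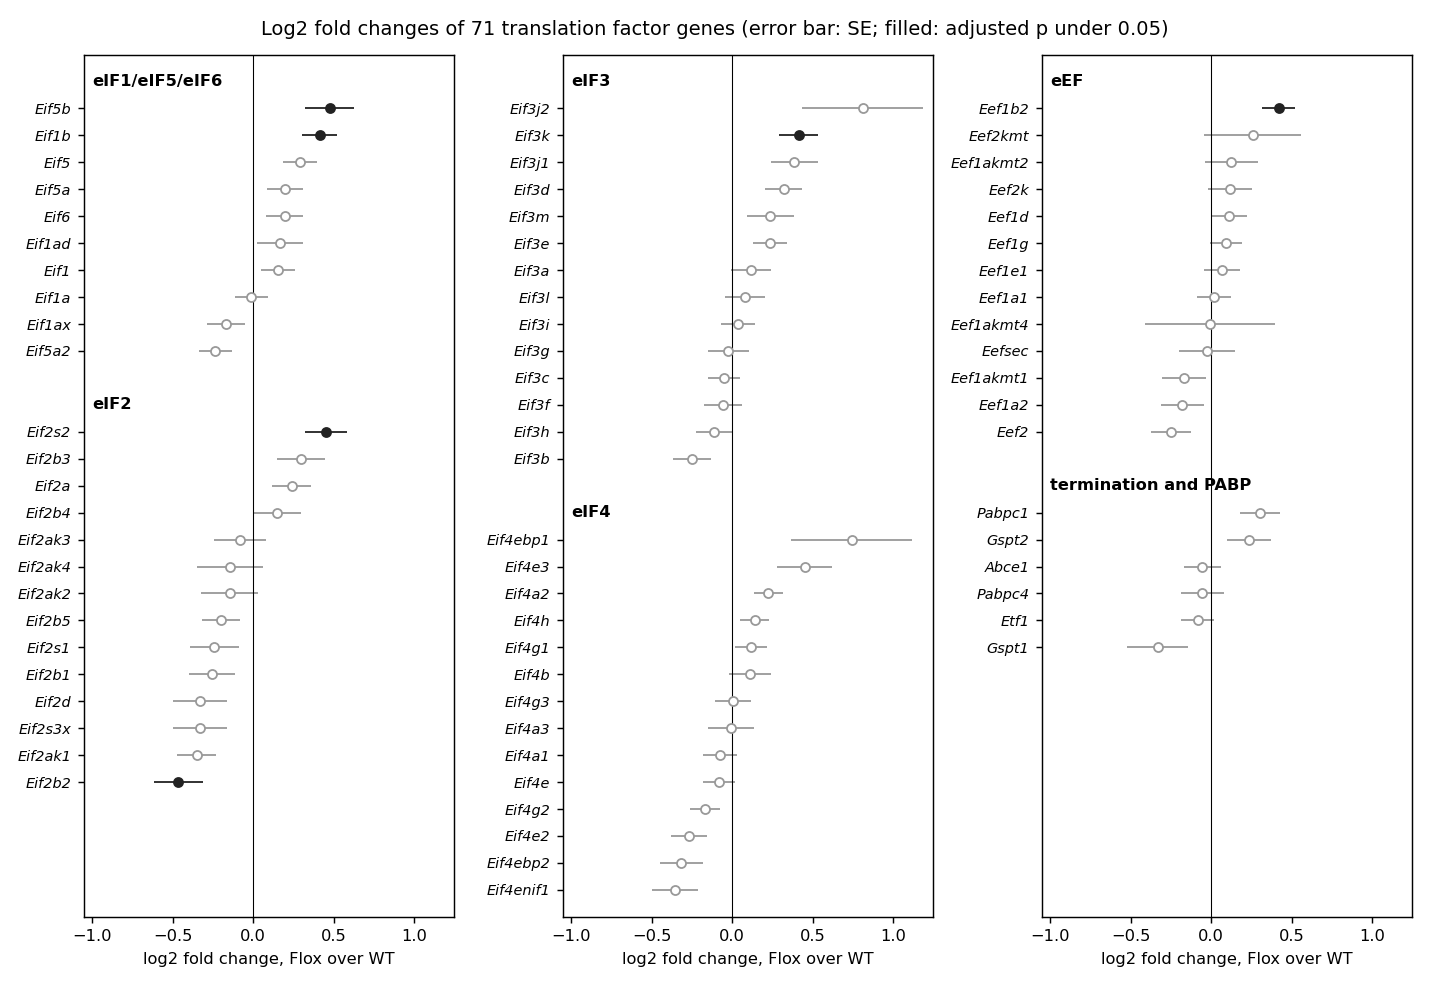
Log2 fold change of Esrrg Flox over Esrrg WT for the 71 members with an adjusted p, by group, from the DESeq2 fit (points: estimates, bars: SE). Filled points mark the 6 members past an adjusted p of 0.05, and most members sit within 0.5 of 0.

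In Esrrg WT the elongation factors held the highest levels, given as RPKM, assigned reads scaled by merged exon length and library size (mean ± SD, n = 3). Eef1a2, the eEF1A isoform of neurons and muscle, was at 836 ± 128 and Eef1a1, the isoform of most other cells, at 789 ± 35.9. These neighbours did not differ beyond their spread, and with mean transcript length in place of merged exons Eef1a1 ranked above Eef1a2. Eef2, the translocase, followed at 656 ± 39.6 and Eif1, which guards start codon choice, at 299 ± 19.6. Eef1g (218 ± 7.72) and Eif1b (212 ± 7.26), a close copy of Eif1, overlapped in their spread. The list of the 10 highest was completed by Eif4a2 (163 ± 5.03) and Eif5a (160 ± 7.76), which also overlapped, and by Eif3h (128 ± 5.63) and Eef1b2 (120 ± 6.08). Of those 10, 9 were also among the 10 highest with mean transcript length.

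Eef1b2, which encodes an eEF1B subunit that exchanges GDP for GTP on eEF1A, rose with the lowest adjusted p. It had 6232, 6588 and 7037 normalized counts in WT 2, 3 and 4, and 8420 and 9273 in Flox 2 and 4. Flox exceeded WT in each library, by more than the spread within either group. The log2 fold change was 0.42 ± 0.10 SE (33.7% higher, DESeq2 adjusted p = 0.00261).

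Eif1b rose by a like amount. Its normalized counts were 4990, 5284 and 5316 in WT and 6383 and 7460 in Flox, without overlap (log2 fold change 0.41 ± 0.11, DESeq2 adjusted p = 0.0044). After removal of the trend of fold change with gene length its log2 fold change was 0.21 (DESeq2 adjusted p = 0.237). Its close copy Eif1 did not pass, at 12951, 13174 and 14961 in WT and 14806 and 15688 in Flox (0.15 ± 0.10, adjusted p = 0.438).

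Eif2s2 encodes the β subunit of eIF2, which contacts eIF5 and eIF2B. Its normalized counts were 5639, 5334 and 6166 in WT and 6859 and 8779 in Flox (log2 fold change 0.45 ± 0.13, DESeq2 adjusted p = 0.0106). The Flox values were above WT and Flox 4 was well above Flox 2. Eif3k, a small peripheral eIF3 subunit, showed the same order, with 3440, 3555 and 3848 in WT and 4295 and 5332 in Flox (0.41 ± 0.12, DESeq2 adjusted p = 0.0157).

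Eif5b, the GTPase that joins the ribosomal subunits, gave the largest fitted rise among the members that passed. It had 5669, 5244 and 6202 normalized counts in WT and 6439 and 9430 in Flox (log2 fold change 0.48 ± 0.15, DESeq2 adjusted p = 0.0303). Flox 2 was only slightly above the highest WT library, and without Flox 4 the log2 fold change was 0.17.

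Eif2b2, the β subunit of the exchange factor eIF2B, was the member that fell. It had 856, 812 and 978 normalized counts in WT and 717 and 563 in Flox, which did not overlap (log2 fold change -0.46 ± 0.15, 27.5% lower, DESeq2 adjusted p = 0.0379). Just outside the threshold stood the kinase gene Eif2ak1 on the lower side (-0.35, adjusted p = 0.0516) and Eif5, the GTPase activator of eIF2, on the higher (0.29, adjusted p = 0.0608).

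**Figure D2:**
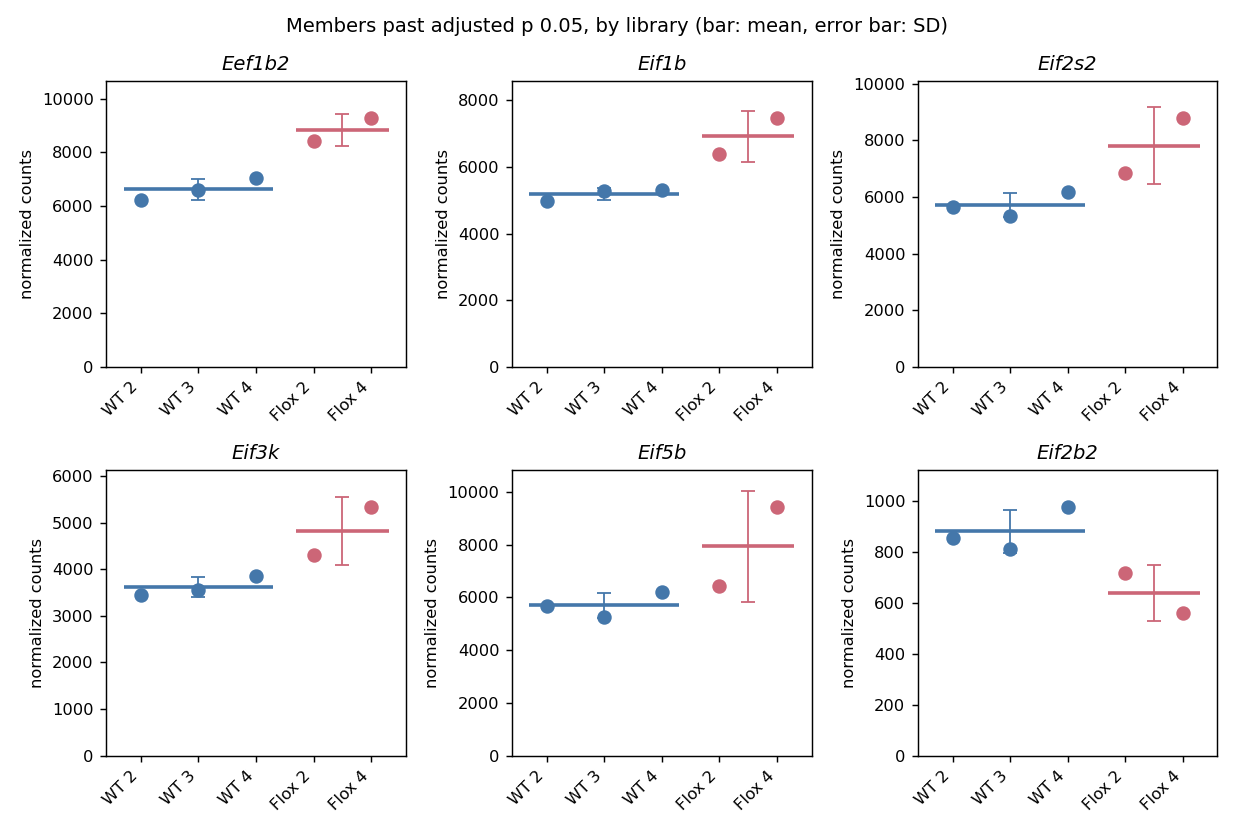
Normalized counts (axis from 0) in each library for the 6 members past an adjusted p of 0.05; blue points are Esrrg WT, red points Esrrg Flox, bars the group mean and error bars the SD. In each panel the Flox libraries lie outside the WT range, and Flox 4 lies farther out than Flox 2.

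These 6 calls leaned on Flox replicate 4. Over the 71 members, Flox 4 alone against WT gave a log2 fold change larger in size than Flox 2 alone in 53. The median absolute values were 0.245 and 0.132. Neither was computed over all genes, but the shares of all genes that passed, given below, differed in the same way. The lean is thus not particular to the members. The sign was the same for 58 of 71. Both comparisons used the same WT libraries, so their signs are not independent. Without Flox 4 no member passed (0.674% of all genes did), and without Flox 2 there were 10 (10.8% of all genes). The WT libraries mattered as well, with 0 members past the test without WT 2 (2.16% of all genes), 2 without WT 3 (4.04%) and 8 without WT 4 (8.86%). Other settings gave 9 with a filter on low counts (8.89%), 7 with TMM scaling (8.36%), 7 with total counts as scaling (8.07%), 5 with the length trend removed (6.49%) and 3 with the replicate number as a block (4.06%). The same library held the highest microglial signal: the 12 microglia markers took 0.0138%, 0.0171% and 0.0085% of counts in WT and 0.0299% and 0.0647% in Flox, and 10 of the 12 passed as higher (median log2 fold change 2.03), led by Tyrobp, Trem2, C1qa, Tmem119 and Cx3cr1 in order of adjusted p, with defining markers Cx3cr1 and P2ry12 detected in every library. Endothelial markers passed as higher for 3 of 8 (Flt1, Cldn5 and Slco1a4), with a summed share of 0.000563% to 0.00126% in WT and 0.00134% to 0.00312% in Flox, and 0 of 9 astrocyte and 0 of 8 oligodendrocyte markers passed. The part of these cells in the changes of the translation factors was not tested, and in bulk samples fewer cells of a type and less mRNA per cell cannot be told apart.

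**Figure D3:**
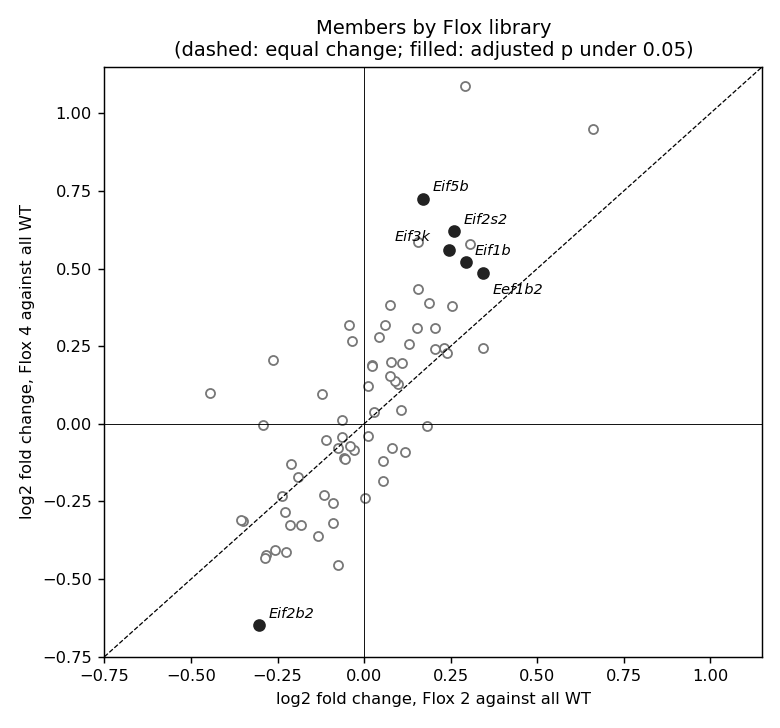
Log2 fold change of each of the 71 members when Flox 2 alone (horizontal axis) or Flox 4 alone (vertical axis) is compared with the 3 WT libraries; the dashed line marks equal change and filled points the 6 members past an adjusted p of 0.05. The 6 lie farther from 0 on the Flox 4 axis, and 58 of 71 points have the same sign on each axis. Both axes share the WT libraries, so the signs are not independent.

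Of the 3 eIF2 subunit genes, Eif2s2 passed and the other two did not. Eif2s1, the α subunit that the stress kinases phosphorylate, had 1021, 1038 and 1302 normalized counts in WT and 1025 and 873 in Flox (log2 fold change -0.24 ± 0.15, adjusted p = 0.386). The groups overlapped. Eif2s3x, the X-linked γ subunit that binds GTP and the initiator tRNA, had 1120, 1103 and 1579 in WT and 997 and 1020 in Flox (-0.33 ± 0.17, adjusted p = 0.236). The high value was that of WT 4, the library almost without Eif2s3y. WT 4 was also the highest WT library for Eif2s1 and Eif2s2, which are not sex-linked. The same held for the other X-linked members, Eif1ax and Gspt2. Eif1ax had 3634.7, 3571.8 and 4323.5 normalized counts in WT and 3329.6 and 3516.2 in Flox. Gspt2 had 602.6, 653.2 and 687 in WT and 721.4 and 802.2 in Flox. Flox 4, the library with the most Xist, had 1020 for Eif2s3x. Without WT 4 the log2 fold change of Eif2s3x was -0.14. The part of sex composition was not tested.

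Of the 5 eIF2B subunits, Eif2b2 passed, whereas Eif2b1 (log2 fold change -0.25), Eif2b5, the catalytic subunit (-0.20), Eif2b3 (0.30) and Eif2b4 (0.15) did not. The 4 eIF2 kinase genes Eif2ak1 (HRI), Eif2ak2 (PKR), Eif2ak3 (PERK) and Eif2ak4 (GCN2) had fitted changes from -0.35 to -0.08, and 0 of 4 passed. Eif2ak1 had 1446, 1500 and 1677 normalized counts in WT and 1269 and 1149 in Flox, below WT in each. Among genes that act downstream of or on phosphorylated eIF2, 0 of the 5 tested passed, and the transcription factor Atf4 had 4277, 4592 and 4142 in WT and 4660 and 5175 in Flox (0.18, adjusted p = 0.332). The median over the 14 genes of the eIF2 group was -0.17, the lowest of the 6 groups, with 1 higher, 1 lower and 12 not past the test.

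The eIF1/eIF5/eIF6 group had the highest median, 0.18, with 2 of 10 higher (Eif1b and Eif5b) and 0 lower. Without Flox 4 that median was 0.0852, beside 0.086 for eIF3, so its rank rested on that library. Eif5 had 8290, 7844 and 7533 normalized counts in WT and 8996 and 10324 in Flox, above WT in each. Eif5a, the hypusine-containing elongation factor, had a log2 fold change of 0.20 (adjusted p = 0.327) and its copy Eif5a2 one of -0.23 (0.149). Eif6, which keeps the large subunit from joining early, was at 0.20 (adjusted p = 0.34), and Eif1ax and Eif1a, copies of the scanning factor eIF1A, were at -0.17 and -0.01.

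In eIF3, the large complex that bridges the small subunit and the mRNA, 1 of 14 rose (Eif3k), 0 fell and the median was 0.10. Eif3d, the subunit that can bind the cap (log2 fold change 0.32, adjusted p = 0.0655), and Eif3j1, a loosely attached subunit (0.39, adjusted p = 0.0749), stood nearest the threshold. Eif3j2, a near-identical copy of Eif3j1, had the highest fitted value of the 71 members with an adjusted p (0.81 ± 0.38, adjusted p = 0.184) from only 39.0, 30.6 and 43.2 normalized counts in WT and 59.6 and 72.6 in Flox. The core subunits Eif3a, Eif3b, Eif3c, Eif3g and Eif3i had values from -0.25 to 0.12, and none passed.

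None of the 14 tested eIF4 genes passed, and their median was 0.00. The cap-binding gene Eif4e had 3581, 3731 and 3934 normalized counts in WT and 3608 and 3471 in Flox (log2 fold change -0.08 ± 0.10, adjusted p = 0.737). The scaffold gene Eif4g1 had 4982, 4951 and 4458 in WT and 5118 and 5280 in Flox (0.12 ± 0.10, adjusted p = 0.594). Flox was above WT for Eif4g1 by less than the spread of the WT libraries, and the Eif4e groups overlapped.

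The helicase gene Eif4a1 had 4295, 4390 and 4888 normalized counts in WT and 4304 and 4286 in Flox (-0.08 ± 0.10, adjusted p = 0.777). Its neuronal counterpart Eif4a2 had 18244, 19015 and 19693 in WT and 21942 and 22449 in Flox (0.23 ± 0.09, adjusted p = 0.103). Flox and WT did not overlap for Eif4a2, and they overlapped for Eif4a1.

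The 4E-binding proteins went in different directions without passing. Eif4ebp2, the main brain form, had 1319, 1427 and 1151 normalized counts in WT and 1113 and 975 in Flox (-0.31 ± 0.14, adjusted p = 0.147). Eif4ebp1 was low, with 43.2, 42.8 and 43.2 in WT and 52.8 and 91.5 in Flox (0.74 ± 0.38, adjusted p = 0.243). Flox lay below WT for Eif4ebp2 and above it for Eif4ebp1, where Flox 4 made most of the difference.

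The transport protein gene Eif4enif1, whose product carries eIF4E into the nucleus, had 709, 717 and 625 normalized counts in WT and 562 and 507 in Flox (-0.35 ± 0.14, adjusted p = 0.106). The cap-binding paralogs Eif4e2 and Eif4e3 had log2 fold changes of -0.27 (adjusted p = 0.129) and 0.45 (0.0753).

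Of the 13 tested eEF genes, 5 of them for modifiers of the factors, only Eef1b2 passed. The eEF median was 0.07 (-0.01 with the length trend removed), and over the 6 genes of eEF1A, eEF1B and eEF2 it was 0.06. Eef1a1 had 40875, 42160 and 45701 normalized counts in WT and 46653 and 40326 in Flox (0.02 ± 0.11, adjusted p = 0.955), a fitted value whose sign turned with total counts as scaling (-0.01) and with the length trend removed (-0.05). Eef1a2 had 36739, 32371 and 45071 in WT and 33404 and 33827 in Flox (-0.18 ± 0.13, adjusted p = 0.51), and its groups overlapped as well. The partners of eEF1B2, Eef1d and Eef1g, had log2 fold changes of 0.11 and 0.09.

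Eef2 had 50503, 46338 and 45807 normalized counts in WT and 45275 and 34734 in Flox (-0.25 ± 0.12, adjusted p = 0.233). Flox 2 was next to the lowest WT library and Flox 4 far below it. Eef2k, the kinase that inactivates eEF2, had 630, 570 and 592 in WT and 630 and 665 in Flox (0.12 ± 0.13, adjusted p = 0.72). Flox 2 was level with WT 2, the highest WT library, and Flox 4 was above it.

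The release and poly(A)-binding genes gave 0 of 6 past the test. Pabpc1, the main cytoplasmic poly(A)-binding protein, had 2519, 2485 and 2893 normalized counts in WT and 2942 and 3553 in Flox (0.30 ± 0.13, adjusted p = 0.122). Etf1, which recognizes stop codons, had 2344, 2284 and 2451 in WT and 2278 and 2180 in Flox (-0.08 ± 0.10, adjusted p = 0.746). Abce1 had 1300, 1429 and 1422 in WT and 1360 and 1304 in Flox (-0.05 ± 0.11, adjusted p = 0.866). Flox lay above WT for Pabpc1 and just below it for Etf1, whereas the Abce1 groups overlapped.

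Ratios of paralogs within a library do not depend on how libraries are scaled. Per kilobase of exon, the ratio of Eif4a2 to Eif4a1 was 3.45, 3.52 and 3.27 in WT and 4.14 and 4.25 in Flox. Gspt2 to Gspt1, both genes for the release GTPase eRF3, gave 1.27, 1.35 and 0.943 in WT and 1.64 and 1.77 in Flox. Pabpc4 to Pabpc1 gave 0.649, 0.688 and 0.704 in WT and 0.594 and 0.48 in Flox. For these 3 pairs Flox and WT did not overlap, with Flox means 1.23, 1.43 and 0.79 times those of WT. Among all single genes tested, both Flox libraries lay above all WT libraries for 19.9% and below them for 22.5%. No such share was computed for the ratios of other gene pairs. The ratio of Eef1a2 to Eef1a1, at 1.08, 0.919 and 1.18 in WT and 0.857 and 1.00 in Flox, overlapped. With 3 against 2 libraries an exact permutation test cannot go below p = 0.1, so the ratios were not tested.

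**Figure D4:**
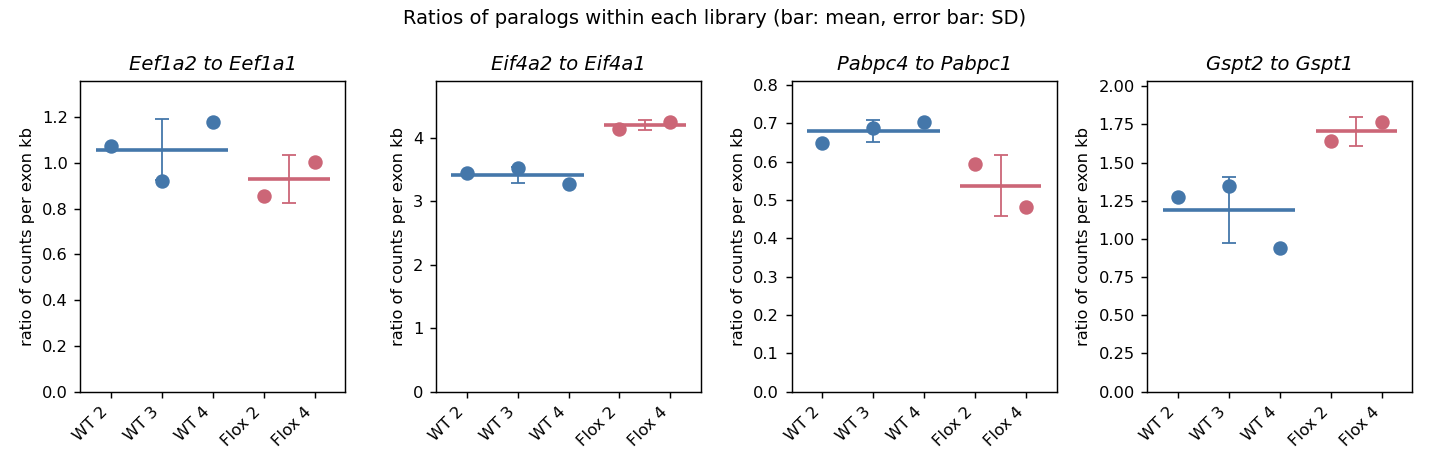
Ratio of counts per kilobase of exon between 4 pairs of paralogs in each library, with axes from 0 (blue: Esrrg WT, red: Esrrg Flox, bars: mean, error bars: SD). Flox lies above WT for Eif4a2 to Eif4a1 and Gspt2 to Gspt1, below it for Pabpc4 to Pabpc1, and overlaps it for Eef1a2 to Eef1a1.

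The ribosomal protein mRNAs, which share the TOP start with several elongation factors, gave a different count. Of 83 tested, 53 rose and 0 fell, with a median log2 fold change of 0.38 (0.24 after the length trend was removed), and their share of counts went from 2.76% to 2.99% in WT to 3.50% and 3.68% in Flox. The lowest adjusted p-values were those of Rps21, Rps23, Rps14, Fau and Rpl41, at log2 fold changes from 0.59 to 0.70. Of the 9 translation factors known to carry a TOP start (Eef1a1, Eef1b2, Eef1d, Eef1g, Eef2, Eif3e, Eif3f, Eif3h and Pabpc1), 1 rose (Eef1b2), 0 fell and the median was 0.09. Their joint share of counts was 0.579%, 0.576% and 0.58% in WT and 0.6% and 0.501% in Flox. Of 4 other TOP genes, Nap1l1, a histone chaperone gene, rose (0.33, DESeq2 adjusted p = 0.026). Tpt1 (0.25, DESeq2 adjusted p = 0.061), Rack1 (0.26, 0.0555) and Hnrnpa1, the 1 fitted lower (-0.01), did not pass. The difference between the lists was described and not tested.

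**Figure D5:**
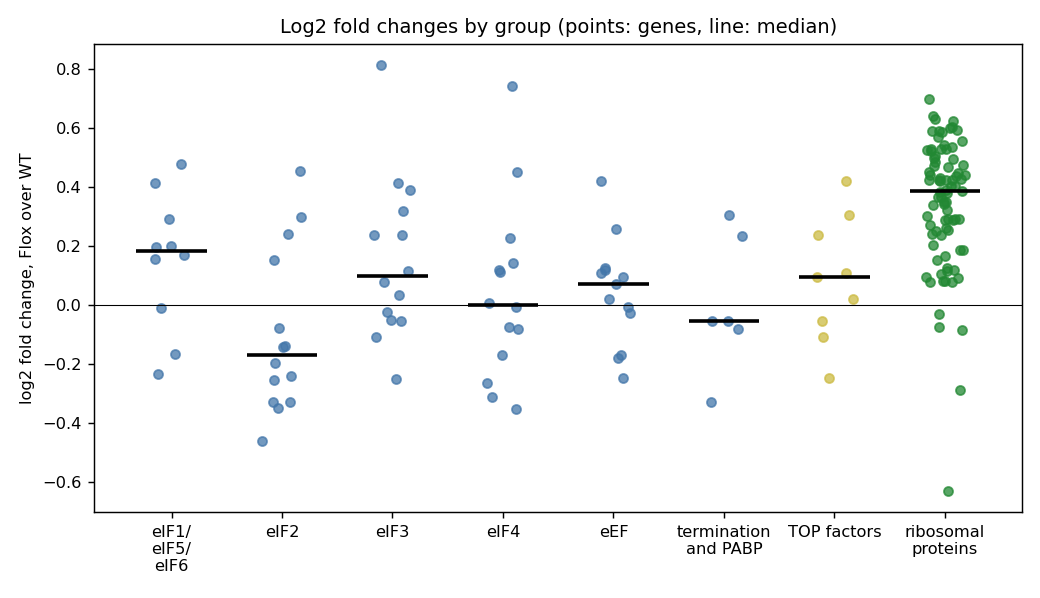
Log2 fold change of Esrrg Flox over Esrrg WT for the tested members of each group, for the 9 TOP translation factors (yellow, also among the blue points) and for 83 ribosomal protein genes (green); each point is a gene and each black line a median. The medians of the member groups run from -0.17 (eIF2) to 0.18 (eIF1/eIF5/eIF6), and that of ribosomal proteins is 0.38.

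The annotated starts of 4 members show what the TOP search read. Each runs from 10 bases before to 20 after the RefSeq start (GRCm38.p6), with a run of C or T that begins with C and lies at the start in capitals, at chr9:78481705-78481734 (minus) for Eef1a1, chr7:108934405-108934434 (plus) for Eif3f, chr10:81176621-81176650 (plus) for Eef2 and chr1:63176821-63176850 (plus) for Eef1b2.
Eef1a1: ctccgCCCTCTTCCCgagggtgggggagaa
Eif3f: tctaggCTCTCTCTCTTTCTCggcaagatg
Eef2: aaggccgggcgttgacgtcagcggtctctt
Eef1b2: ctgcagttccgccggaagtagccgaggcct
A run of C followed by 4 C or T within 5 bases of the start was found in 13 of 55 members (23.6%), in 21.8% of all promoters and in 46.2% of the 65 ribosomal protein promoters. The 2 members with such a start shown above had log2 fold changes of 0.02 (Eef1a1) and -0.06 (Eif3f), and Eef1b2, which rose, had none at this annotated start. Eif2b2, which fell, was among the 13 with one. Of the TOP factors listed above, only Eef1a1 and Eif3f were among the 13, so a run missing here does not show that a gene lacks a TOP start. No median fold change was computed over the 13, and the genes named here do not stand for them. The starts are those RefSeq lists, and the starts used in these cells were not measured.

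Lists of genes that act with the factors gave from 0 to 2 calls each, to be read against the 8.25% of all genes that passed. In the list of 13 mTORC1 and 4E-BP regulators, Tsc2, a brake on mTORC1, fell (1009, 907 and 911 normalized counts in WT and 762 and 630 in Flox, log2 fold change -0.44, DESeq2 adjusted p = 0.0283), and 12 did not pass, among them Mtor (-0.39, 0.0717). None of 10 initiation and termination helpers and none of 9 factor-modifying enzymes passed. Of 22 cytosolic tRNA synthetase genes, Kars, for lysine, fell (3020, 2881 and 2927 in WT and 2409 and 2217 in Flox, -0.35, DESeq2 adjusted p = 0.0153).

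Among 10 mitochondrial translation factors, Tufm, the mitochondrial counterpart of eEF1A, fell, with 1999, 1948 and 2169 normalized counts in WT and 1669 and 1535 in Flox (-0.35, DESeq2 adjusted p = 0.031). Tsfm, its exchange factor, rose, with 1017, 984 and 1042 in WT and 1178 and 1597 in Flox (0.45, DESeq2 adjusted p = 0.0325). The mitochondrial factor and its exchange factor thus passed in opposite directions. Of the cytosolic counterparts, Eef1b2, an exchange subunit gene, rose. Its eEF1B partner Eef1d did not pass, and neither did Eef1a1 or Eef1a2.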

How the data were processed

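The deposited table holds raw read counts per gene, made by the authors from poly(A)-selected, unstranded libraries with Trim Galore 0.6.6, STAR 2.7.9a and HTSeq 0.11.3 (submitters' processing notes). The study's methods name genome GRCm38 and the notes GRCm39, so no coordinates of the files are given, and promoter positions are those of the RefSeq table. Reads that mapped to several places (3.6% to 4.23%) or overlapped several genes (5.62% to 5.78%) were not counted, and reads in no gene made up 3.18% to 4.45%. Members with close copies (Eef1a1, Eif1, Eif4a1, Eif5a, Pabpc1, Eif3j1, Eif3j2) are therefore uncertain, as are the 31 of 74 whose exons overlap another gene, among them Eef1b2, Eif1b and Eif5b with a gene on the opposite strand.

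Symbols came from GENCODE M21 (52147 of 53700 IDs matched, 97.1%). The 29407 genes that had any count were fitted with DESeq2 1.42.0 in R 4.3.3 on all 5 libraries (two-sided Wald test, Benjamini-Hochberg adjustment over the 15724 genes that kept an adjusted p), and edgeR 4.0.16 was an alternative. The fitting was tested on simulated data. Normalized counts are counts over size factors. The study's methods describe several animals pooled per sample, and the labels do not say how the pools were made. The sex-linked counts set WT 4 apart from WT 2 and 3, and Flox 4 apart from Flox 2. Beyond these differences, the spread that the p-values measure may be technical. No library duplicated another (chi-square per degree of freedom for pairs 4.25 to 45.8). The members and lists were chosen with earlier results of these data known. Library values are given for members that passed, for a fixed core of 14 members and for the 3 highest and lowest fold changes. From the other lists, genes that passed are named, at most 5 a list, by lowest adjusted p. Library values of Eif1, Eif5, Eif2s3x, Eif1ax and Gspt2 were added as checks or neighbours after their values were seen. So were the genes Th, Slc6a3, P2ry12, Xist, Atf4, Mtor, Tpt1, Rack1 and Hnrnpa1. The alternatives were TMM or total-count scaling, a filter of 10 counts in 2 libraries, a replicate block, removal of the length trend and leaving out each library.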

Additional observations from a re-analysis of the deposited data

How the results depend on the processing

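The count of 6 members past an adjusted p of 0.05 was 7 with TMM or total-count scaling, 9 with the filter on low counts, 5 with the length trend removed and 0 by edgeR, and ran from 0 to 10 when 1 library was left out (0 without WT 2, 2 without WT 3, 8 without WT 4, 10 without Flox 2 and 0 without Flox 4). With 1 Flox library left, that library is assumed to vary like the WT group. Without WT 2, where the count was 0, members at a DESeq2 unadjusted p under 0.05 numbered 12. The count past a fold of 1.5 as well was 0, but 1 with the length trend removed. It also moved without Flox 2, a fit that leaves 1 Flox library. The shares of all genes beside these counts were not computed at those settings, so the counts cannot be set against a background. All 6 members kept their direction in the 11 alternatives and passed in 5 to 8 of them. Eef1a1 changed sign: its log2 fold change of 0.02 was -0.0127 with total counts, -0.0541 with the length trend removed, and ran from -0.0898 to 0.117 when 1 library was left out. The median over all members turned from 0.02 to -0.0127 with total counts and -0.0112 with the length trend removed, and the eEF median from 0.07 to -0.0112 with the length trend removed (0.0221 to 0.122 when 1 library was left out). The eIF1/eIF5/eIF6 median of 0.18 ran from 0.0852 without Flox 4 to 0.269 without Flox 2. The termination and poly(A)-binding median of -0.05 was 0.00332 without WT 4. The cause was not tested. Replicate numbers are shared between groups for 2 pairs (r of deviations 0.153 and 0.126). These r values cannot decide pairing, because the deviations of 2 Flox libraries are mirror images. On the second principal component of the libraries (26.2% of variance), WT 4 and Flox 4 lay at -20.86 and -11.52. WT 2, WT 3 and Flox 2 lay at 11.19, 11.97 and 9.21. On the first (58.2%), WT 4 and Flox 4 lay at opposite ends (-24.68 and 33.64). Whether libraries were paired was not tested. With a replicate block 3 members passed (4.06% of all genes). Depth limits Eif4ebp1, Eif3j2 and the 3 members with 0 to 3 counts.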
